A study of Mus musculus with 6 samples.

Results

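Cohesin and its regulators were taken as the genes whose symbol in the table was *Rec8*, *Smc1a*, *Smc1b*, *Smc3*, *Stag3*, *Rad21*, *Wapl*, *Nipbl*, *Pds5a*, or *Pds5b*. All 10 were listed, among 25631 genes. The libraries were made from oocytes of naturally aged ICR mice, an outbred stock. The mice were 14 months old and were given eCG, a gonadotropin that stimulates follicle growth, and oocytes were punctured out of large antral follicles. The aminophylline group (3 libraries) drank water with 4.0 mM aminophylline, a theophylline derivative that inhibits phosphodiesterases, for 1 week and then water alone for 3 weeks, while the control group (3 libraries) drank water throughout. The numbers of mice and oocytes behind a library were not given in the sources used here, no library came from young mice, and nothing states that the libraries of a group came from separate animals, so that the p-values measure the spread between libraries, which may be technical.

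Cohesin is a ring of a pair of SMC proteins closed by a kleisin, with a STAG protein bound to the kleisin, and it holds sister chromatids together. Germ cells replace several mitotic subunits with meiotic ones: REC8 or RAD21L for RAD21, SMC1B for SMC1A, and STAG3 for STAG1 or STAG2. In mouse oocytes, cohesion depends on REC8 rings that are loaded before birth and are not replaced in the growing oocyte, and the loss of these rings with maternal age is a known source of chromosome missegregation. NIPBL, with MAU2, loads the ring, WAPL opens it, and PDS5A and PDS5B bind it and act in both its release and its protection. The question put to these libraries was whether the mRNAs of this machinery differed after oral aminophylline.

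The promoters of the 3 meiotic subunits among the 10 genes are shown because these genes had the lowest levels of the 6 subunits while the same short element lay near each RefSeq start. Of the 10 genes, 8 were matched to RefSeq promoters (GRCm38.p6), and *Rad21* and *Nipbl* were not. Each line runs 5′ to 3′ from 130 bases before the RefSeq start to 20 bases after it, with the letters TCCCGC, the core bound by E2F factors, in capitals. The stretches are chr14:55618036-55618185 on the plus strand for *Rec8*, chr15:85131938-85132087 on the minus strand for *Smc1b*, and chr5:138280379-138280528 on the plus strand for *Stag3*.
Rec8: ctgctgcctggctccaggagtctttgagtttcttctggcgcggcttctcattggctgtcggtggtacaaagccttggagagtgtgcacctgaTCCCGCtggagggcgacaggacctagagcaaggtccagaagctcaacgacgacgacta
Smc1b: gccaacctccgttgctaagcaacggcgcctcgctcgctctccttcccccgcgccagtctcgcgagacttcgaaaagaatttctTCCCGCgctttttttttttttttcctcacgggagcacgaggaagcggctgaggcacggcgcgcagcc
Stag3: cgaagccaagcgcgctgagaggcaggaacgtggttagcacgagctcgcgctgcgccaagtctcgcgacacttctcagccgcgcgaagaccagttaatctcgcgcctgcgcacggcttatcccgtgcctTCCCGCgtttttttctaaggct
In the full promoter windows, from 250 bases before to 50 bases after the start, TCCCGC or GCGGGA on the other strand was present in 7 of the 8 genes (all but *Wapl*), compared with 6562 of 32851 RefSeq promoters. The letters began 38 bases before the RefSeq start in *Rec8*, 47 before in *Smc1b*, and 2 before in *Stag3*. The GENCODE gene positions given below begin elsewhere, at 55618037 for *Rec8* and 138280240 for *Stag3*. By those starts, the *Rec8* letters and the whole *Stag3* stretch lie after the start. The palindromic E-box CACGTG, the site of MYC and MAX family proteins, was found in 1 of the 8, *Stag3*, and in 7.15% of all promoters. These matches describe letters only, and both motifs were chosen with the levels known.

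All 6 libraries carried the oocyte markers at high levels. The summed FPKM (fragments scaled to transcript length and library size) of 10 oocyte markers was 19623 to 27005 in the controls and 20561 to 24334 with aminophylline, and that of 10 granulosa cell markers was 16.1 to 24.0 and 17.4 to 22.6. Most of the granulosa sum came from *Cyp19a1* (7.37 to 15.7 FPKM over the 6 libraries) and *Nr5a2* (4.43 to 8.53 FPKM). *Inha* was at 0.417 to 1.66 FPKM, and the other granulosa markers were under 1 FPKM in every library. The 11 macrophage markers summed to 257 FPKM in control 1, where 9 of the 11 were highest, to 82.0 and 103 in the other controls, and to 82.5 to 101 with aminophylline. One of them, *C1qb*, was at 72.3 FPKM in control 1 and at 79.2 to 99.8 FPKM in the other 5 libraries, and without it the other 10 summed to 185 FPKM in control 1 and to 2.17 to 3.48 FPKM in the other 5. The library totals recovered from the FPKM values were 14112341 reads in control 2 and 24773273 to 33641283 reads in the other 5 libraries. No gene of 10340 tested had an adjusted p under 0.05 (limma, Benjamini-Hochberg), which is 0% of them. With the replicate number as a block, 47 genes did, none of them among the cohesin genes. At an unadjusted p under 0.05, 4.41% of genes were higher with aminophylline and 2.84% lower. Of these genes 60.8% were thus higher, compared with 49.1% after rescaling to the same sum, 39.7% with quantile normalization, 39.6% with the length correction, and 35.9% with median centring. In these bulk samples, fewer cells holding an mRNA and less of it per cell cannot be told apart.

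*Rec8* mRNA was at or near 0 in every library. *Rec8* (chromosome 14, 55618037 to 55625395, plus strand, GRCm38) encodes the meiotic kleisin. It was listed at 0 FPKM in control 1, control 2, control 3, aminophylline 2, and aminophylline 3, and at 0.0172 FPKM in aminophylline 1, where the value was taken as 1 read. A floor of 3 reads per library corresponds to 0.0434 to 0.103 FPKM for its 2055-base transcript (counting error only), and the single read of aminophylline 1 lay under it. *Rad21*, the mitotic kleisin, was at 47.4 times this floor in control 2 and at 340 times in aminophylline 3, the 2 ends of the range. *Rec8* was therefore not tested between groups in the main fit.

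*Rad21* (chromosome 15, 51962240 to 51991747, minus strand) was the main kleisin mRNA and varied most among the tested genes of the list. Its levels were 8.68, 4.90, and 14.2 FPKM in controls 1 to 3 and 6.91, 9.78, and 16.2 FPKM in aminophylline 1 to 3. In each group the library numbered 3 was highest, and the groups overlapped over most of their range. The highest level was 3.31 times the lowest. The difference between groups on the log2(FPKM + 1) scale was 0.25 (SE 0.361, 95% interval −0.54 to 1.05, adjusted p = 0.858 by limma), within the spread between libraries, and its sign turned when aminophylline 3 (−0.048) or control 2 (−0.094) was left out. *Rad21l*, a germ cell kleisin outside the 10 genes, was at 0.434, 0.616, and 3.16 FPKM in the controls and at 1.44, 1.96, and 1.93 FPKM with aminophylline. Control 3 held the highest *Rad21l* level and the other 2 controls the lowest, so that the groups overlapped, and *Rad21l* made up 4.76% to 18.2% of the summed *Rad21* and *Rad21l* FPKM.

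**Figure D1:**
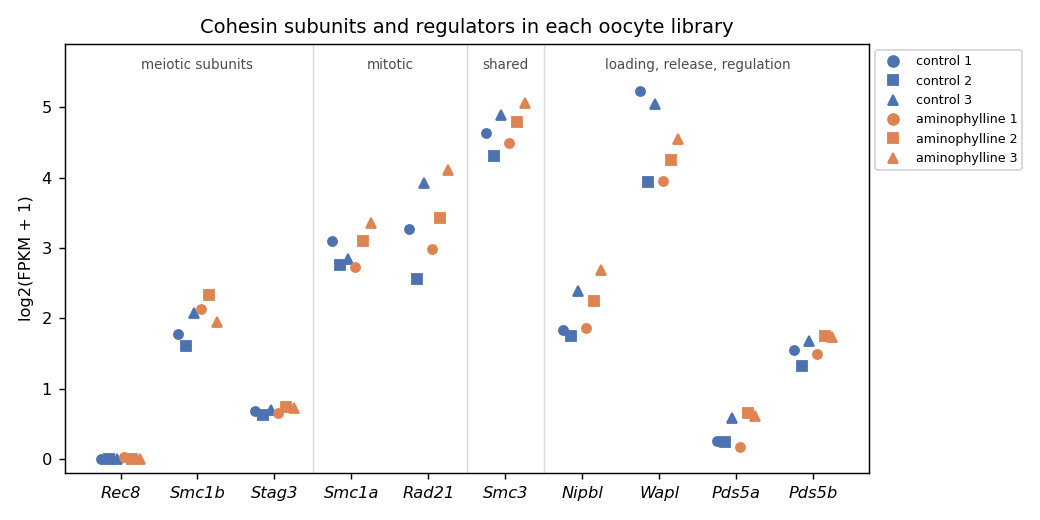
Level of each of the 10 genes in each library as log2(FPKM + 1), with controls in blue, aminophylline in orange, and the symbol giving the library number. *Rec8* lies at or near 0 in all 6 libraries, *Smc3* and *Wapl* are highest, and for no tested gene do the groups separate.

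The SMC subunits were present in every library at levels that overlapped between groups. *Smc3* (chromosome 19, 53600398 to 53645833, plus strand), the SMC subunit of every cohesin ring, had the highest FPKM of the 10 genes by the mean over all 6 libraries, although *Wapl* was higher in controls 1 and 3. It was at 23.8, 18.7, and 28.8 FPKM in controls 1 to 3 and at 21.5, 26.6, and 32.5 FPKM in aminophylline 1 to 3. Control 2 was lowest and aminophylline 3 highest, with the other libraries interleaved. The log2 difference was 0.17 (SE 0.217, 95% interval −0.30 to 0.65, adjusted p = 0.834 by limma), and ran from 0.019 without control 2 to 0.32 without aminophylline 1.

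*Smc1a* (chromosome X, 152016428 to 152062694, plus strand), the mitotic partner of *Smc3*, was at 7.56, 5.74, and 6.20 FPKM in the controls and at 5.66, 7.57, and 9.23 FPKM with aminophylline. *Smc1b* (chromosome 15, 85064689 to 85131964, minus strand), its meiotic counterpart, was at 2.41, 2.05, and 3.21 FPKM in the controls and at 3.37, 4.02, and 2.85 FPKM with aminophylline. For *Smc1a*, aminophylline 1 was the lowest of all libraries and aminophylline 3 the highest. For *Smc1b*, 2 of the aminophylline libraries lay above all controls and aminophylline 3 lay below control 3, so that the groups overlapped. The *Smc1a* difference on the log2 scale was 0.16 (SE 0.231, 95% interval −0.34 to 0.67, adjusted p = 0.855 by limma), and ran from 0.018 without aminophylline 3 to 0.33 without aminophylline 1. *Smc1b* had the largest positive difference among the tested genes of the list, 0.31 (SE 0.223, 95% interval −0.18 to 0.80, adjusted p = 0.732 by limma). On the FPKM + 1 scale, the interval of *Smc1b* ran from 0.885 times to 1.75 times the control.

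Within the SMC1 pair, *Smc1b* made up 23.6% to 37.3% of the summed FPKM of *Smc1a* and *Smc1b*. The ratio of *Smc1b* to *Smc1a* was 0.319, 0.358, and 0.519 in the controls and 0.595, 0.531, and 0.309 with aminophylline. Aminophylline 3 was the lowest library and the other 2 of its group the highest, and the ratio did not separate the groups (log2 difference 0.24, exact permutation p = 0.7, 0.8 adjusted over 4 ratios). *Smc3* was 2.29 to 3.06 times the SMC1 sum in FPKM.

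*Stag3* (chromosome 5, 138280240 to 138312393, plus strand), the meiotic STAG subunit, was low and nearly level across libraries. It was at 0.595, 0.538, and 0.616 FPKM in the controls and at 0.567, 0.672, and 0.648 FPKM with aminophylline, from 36 to 95 reads a library. The means were 0.583 ± 0.0407 and 0.629 ± 0.0548 FPKM (SD, n = 3 each), and the groups overlapped. *Stag3* did not reach 1 FPKM in 3 libraries, the level set for testing, and received no gene-wise test in the main fit. The mitotic *Stag2* was at 1.21 ± 0.571 and 1.53 ± 0.292 FPKM (SD, n = 3 each) and *Stag1* at 0.385 ± 0.153 and 0.378 ± 0.0505 FPKM. The *Stag1* values were divided by a transcript length of 25284 bases, which lowers them in any comparison between genes. On these values *Stag3* made up 20.7% to 36.7% of the STAG sum, and its ratio to *Stag1* plus *Stag2* was 0.397, 0.579, and 0.261 in the controls and 0.361, 0.314, and 0.322 with aminophylline. The controls spanned the aminophylline libraries on both sides (log2 difference −0.24, exact permutation p = 0.6, 0.8 adjusted over 4 ratios).

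*Wapl*, which encodes the protein that opens the ring, was the only tested gene of the list with a lower mean in the aminophylline group, and it did not pass the test. *Wapl* (chromosome 14, 34673928 to 34747983, plus strand) was at 36.5, 14.4, and 32.0 FPKM in controls 1 to 3 and at 14.5, 18.0, and 22.3 FPKM in aminophylline 1 to 3. Controls 1 and 3 lay above all aminophylline libraries, while control 2 lay just below the lowest of them, so that the groups overlapped through this single library. The means were 27.6 ± 11.7 FPKM and 18.2 ± 3.93 FPKM (SD, n = 3 each). The log2 difference was −0.49 (SE 0.311, 95% interval −1.18 to 0.19, adjusted p = 0.728 by limma), a fold of 0.711 on the FPKM + 1 scale with an interval of 0.443 to 1.14.

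The size of the *Wapl* difference depended on control 2 and control 1. Without control 2, the library with the fewest reads, it was −0.89 (unadjusted p = 0.00191, adjusted p = 0.105 by limma). In that fit 752 of 10340 tested genes were lower and 865 higher at an unadjusted p under 0.05. Without control 1, the library with the highest macrophage markers, the *Wapl* difference was −0.25 (unadjusted p = 0.476, adjusted p = 0.984 by limma). The part of those cells in the *Wapl* level was not tested. Without control 3 the difference was −0.34 (unadjusted p = 0.327 by limma) and without aminophylline 1 it was −0.34 (unadjusted p = 0.329 by limma). With the replicate number as a block, the unadjusted p of *Wapl* was 0.0384 and the adjusted p 0.318 (limma), and *Wapl* was the 1 gene of the 7 tested under an unadjusted p of 0.05 in that fit, in which 9.88% of all tested genes were higher and 4.3% lower at that level. Only 1 of 3 pairs of same-numbered libraries was higher with aminophylline, the pair numbered 2. Nothing states that same-numbered libraries share mice, so counts of pairs here and below describe the values only. No share over all genes is set beside them.

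*Nipbl*, the cohesin loader, was at 2.57, 2.34, and 4.23 FPKM in the controls and at 2.65, 3.73, and 5.45 FPKM with aminophylline. *Nipbl* (chromosome 15, 8290617 to 8444463, minus strand) had a higher value with aminophylline in 3 of 3 same-numbered pairs, and the groups overlapped. Its log2 difference was 0.28 (SE 0.273, 95% interval −0.32 to 0.88, adjusted p = 0.788 by limma), and ran from 0.066 without aminophylline 3 to 0.48 without control 3.

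The ratio of the release factor to the loader separated the groups, unlike either gene alone. *Wapl* over *Nipbl* was 14.2, 6.13, and 7.56 in controls 1 to 3 and 5.46, 4.82, and 4.10 in aminophylline 1 to 3. Every aminophylline library lay below every control, and the ratio was lower in 3 of 3 pairs. The log2 difference was −0.87 with an exact permutation p of 0.1, the smallest that 3 against 3 libraries allow, and 0.4 after adjustment over the 4 ratios, so that the design could not reach the 0.05 level. Within the pairs the exact permutation p was 0.25, again the smallest possible. Over the fits that left out 1 library, the difference ranged from −1.12 (without control 2) to −0.52 (without control 1).

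*Wapl* was then set against each of the other 6 tested genes within a library, a comparison chosen after the values were seen and given without a test. In 4 of the 6 ratios (*Smc3*, *Rad21*, *Nipbl*, *Pds5b*) the groups did not overlap, with aminophylline below control, and in 2 (*Smc1a*, *Smc1b*) they did. Over 10333 other tested genes above 0 in every library, the ratio of *Wapl* to the gene separated the groups in this direction for 20.8% and in the other for 0.0677%, so that such a separation was frequent with *Wapl* in the numerator. *Wapl* over *Smc3* was 1.53, 0.769, and 1.11 in the controls and 0.672, 0.676, and 0.686 with aminophylline. The 3 aminophylline libraries were nearly equal to each other in this ratio, and the lowest control, control 2, was close above them. *Wapl* over *Rad21* was 4.20, 2.93, and 2.25 in the controls and 2.09, 1.84, and 1.37 with aminophylline. *Wapl* over *Pds5b* came within a small distance of overlap, with a lowest control of 9.67 and a highest aminophylline library of 9.56. All 6 ratios share the *Wapl* values and are not independent of each other.

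**Figure D2:**
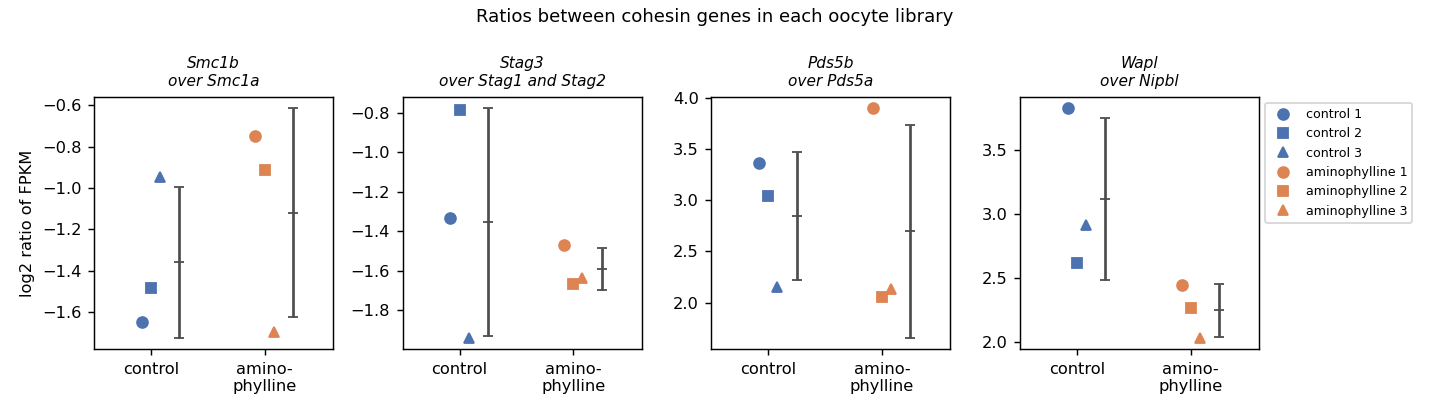
Log2 ratio of FPKM for 4 pairs of alternative or opposing factors, with a point for each library and the group mean ± SD (n = 3) beside the points. For *Wapl* over *Nipbl* the 3 aminophylline libraries (4.10 to 5.46 as ratios) lie below the 3 controls (6.13 to 14.2), and in the other panels the groups overlap.

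The PDS5 proteins were represented mostly by *Pds5b*. *Pds5b* (chromosome 5, 150673739 to 150810690, plus strand) was at 1.93, 1.49, and 2.20 FPKM in the controls and at 1.82, 2.35, and 2.33 FPKM with aminophylline. Only aminophylline 2 and 3 lay above all controls. The log2 difference was 0.14 (SE 0.205, 95% interval −0.31 to 0.59, adjusted p = 0.856 by limma), and ran from 0.044 without control 2 to 0.23 without control 3. *Pds5a* (chromosome 5, 65605721 to 65698273, minus strand) was at 0.188, 0.181, and 0.496 FPKM in the controls and at 0.122, 0.565, and 0.530 FPKM with aminophylline. It was too low to be tested in the main fit. Its libraries fell into a low set (control 1, control 2, aminophylline 1) and a higher set (control 3, aminophylline 2, aminophylline 3) that cut across the groups. *Pds5a* shares 374 exon bases with 2 unclassified genes annotated on the other strand. *Pds5b* over *Pds5a* was 4.16 to 14.9 over the 6 libraries, with a log2 difference of −0.15 between groups (exact permutation p = 0.8, 0.8 adjusted over 4 ratios).

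Of the 10 genes, 7 were tested, and 3 (*Rec8*, *Stag3*, *Pds5a*) were below the level for testing. None of the 7 had an adjusted p under 0.05 by limma, and 0 had an unadjusted p under 0.05. With voom on the recovered reads, 0 had an adjusted p under 0.05. In 0 of the 7 were the groups free of overlap, compared with 7.51% of all tested genes free of overlap and higher with aminophylline and 4.96% free of overlap and lower. The log2 difference was positive in 6 and negative in 1, with a median of 0.17, compared with a median of 0.10 over all 10340 tested genes, of which 6702 were positive. The median of the 7 was 0.088 with the length correction and 0.091 with median centring, where that of all genes was 0.012 and 0.013, and it ran from 0.031 (without aminophylline 3) and 0.044 (without control 2) to 0.32 (without aminophylline 1 or control 3). These counts are of the 7 genes that passed the filter and not of all 10. The intervals of the 7 genes all contained 0, and their outer ends reached −1.18 for *Wapl* and 1.05 for *Rad21*.

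The 7 tested genes shared an order of libraries within each group. Control 2 was the lowest control for 7 of 7 genes, and it was the lowest of all 6 libraries for 6 of 7. Aminophylline 1 was the lowest aminophylline library for 6 of 7. Control 3 was the highest control for 5 of 7, and aminophylline 3 was the highest of its group for 5 of 7. All 7 have transcripts of at least 4040 bases. The 3354 tested genes with transcripts of 4 kb or longer followed a like order, and so did the 3302 of 2 to 4 kb. The median deviation of the genes of 4 kb or longer from their own mean over the 6 libraries was −0.11, −0.23, and 0.22 in the controls and −0.15, 0.063, and 0.20 with aminophylline (log2). For those of 2 to 4 kb it was −0.10, −0.14, and 0.19 in the controls and −0.073, 0.035, and 0.085 with aminophylline. For the 7 genes it was −0.065, −0.39, and 0.20 in the controls and −0.25, 0.11, and 0.37 with aminophylline. Among the 3684 tested genes under 2 kb it was −0.096, 0.054, and −0.12 in the controls and 0.093, 0.079, and 0.0040 with aminophylline. The part of transcript length or RNA quality in the levels of the cohesin genes was not tested. With a correction for transcript length, *Wapl* had a log2 difference of −0.58 (unadjusted p = 0.0406, adjusted p = 0.499 by limma). In that fit 592 of 10340 tested genes were lower and 388 higher at an unadjusted p under 0.05.

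**Figure D3:**
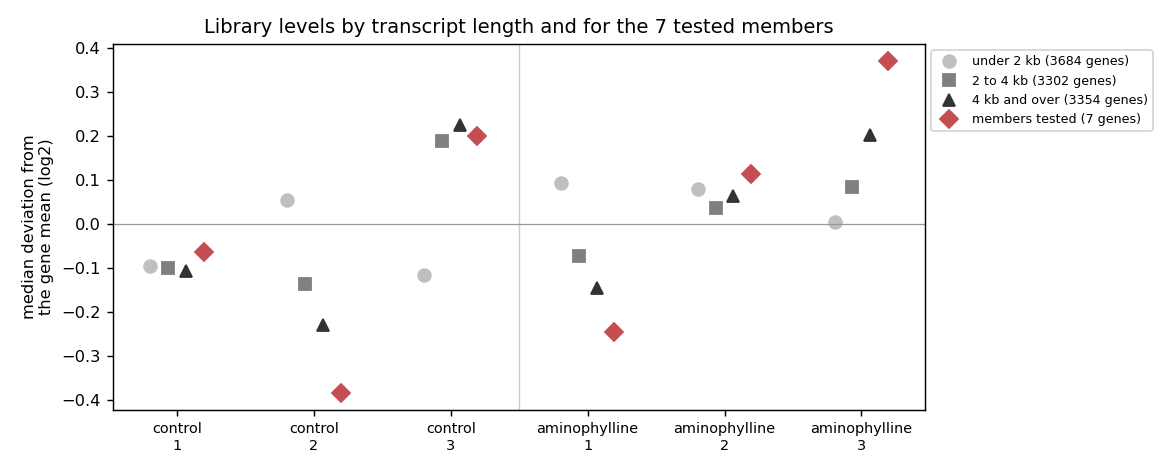
Median deviation from the gene mean on the log2(FPKM + 1) scale in each library, for tested genes grouped by transcript length (grey to black) and for the 7 tested cohesin genes (red). The cohesin genes, the genes of 2 to 4 kb, and the genes of 4 kb and over lie below 0 in control 2 and aminophylline 1 and above 0 in control 3 and aminophylline 3. Genes under 2 kb do not show this pattern.

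Another 21 genes of the cohesin pathway were examined, and 20 of them were tested (*Stag1* was not). None had an adjusted p under 0.05 by limma, 1 had an unadjusted p under 0.05 (*Espl1*, higher with aminophylline), and 0 were lower at that level, beside 4.41% of all tested genes higher and 2.84% lower, so that 1 of 20 was near the background. The differences were positive in 12 and negative in 8, with a median of 0.086. *Espl1*, encoding separase, the protease that cleaves the kleisin at anaphase, was at 3.27, 4.21, and 6.91 FPKM in the controls and at 5.88, 8.63, and 8.71 FPKM with aminophylline. Aminophylline 2 and 3 lay above all controls, while aminophylline 1 lay below control 3. *Espl1* was higher in 3 of 3 pairs, with a log2 difference of 0.62 (SE 0.271, 95% interval 0.027 to 1.22, unadjusted p = 0.042, adjusted p = 0.682 by limma). With the replicate number as a block its unadjusted p was 0.0069 and its adjusted p 0.185 (limma), and its difference was positive in all 18 alternatives run. Its unadjusted p was under 0.05 in 11 of the 18, and not without a filter, after rescaling to the same sum, without moderation, or without control 1, control 2, aminophylline 2, or aminophylline 3.

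The inhibitor and protectors of cohesin cleavage overlapped between the groups. *Pttg1*, encoding securin, the inhibitor of separase, was the most abundant gene of the pathway at a mean of 1154 FPKM in the controls and 1233 FPKM with aminophylline. *Sgo2a*, encoding the shugoshin that protects centromeric cohesin in oocytes, was at 3.32 and 3.27 FPKM. *Sgo2b*, its paralog, was at 1.09 ± 0.438 and 1.63 ± 0.191 FPKM (SD, n = 3 each; log2 difference 0.35, adjusted p = 0.728 by limma). *Ppp2ca*, the catalytic subunit of the phosphatase that shugoshin recruits, was at 81.9, 59.9, and 84.0 FPKM in the controls and at 60.1, 46.8, and 71.1 FPKM with aminophylline. It had the lowest difference of the 20 genes, lower in all 3 pairs although the groups overlapped (−0.34, 95% interval −0.79 to 0.10, adjusted p = 0.725 by limma). *Bub1*, the kinase that brings shugoshin to centromeres, had a log2 difference of −0.011 (adjusted p = 0.994 by limma), and *Meikin*, a meiotic kinetochore factor, was at 32.1 and 29.6 FPKM. *Sgo1*, the other shugoshin, was at 17.6 and 18.0 FPKM, and *Ppp2r1a*, the scaffold of the same phosphatase, had a log2 difference of −0.057. The kinases *Plk1*, *Csnk1d*, and *Csnk1e*, whose family members phosphorylate cohesin before its removal, had differences of 0.15, 0.18, and 0.20, and none of the 3 had an unadjusted p under 0.05.

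The factors that make cohesion durable were among the more abundant mRNAs of the pathway. *Cdca5*, encoding sororin, which counteracts WAPL, was at a mean of 186 FPKM in the controls and 166 FPKM with aminophylline. *Esco2*, an acetyltransferase that acts on SMC3 during replication, was at 98.2 and 94.5 FPKM, and its relative *Esco1* at 18.9 and 19.3 FPKM. *Hdac8*, which removes that acetyl group, was at 1.45 and 1.32 FPKM. *Mau2*, the partner of NIPBL, was at 3.08 and 3.33 FPKM, and *Ctcf*, which stops cohesin on chromatin, at 1.66 and 2.07 FPKM. All 6 had an interval that contained 0. The *Hdac8* and *Ctcf* values were divided by transcript lengths of 17132 and 16977 bases, which lowers them in any comparison between genes.

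**Figure D4:**
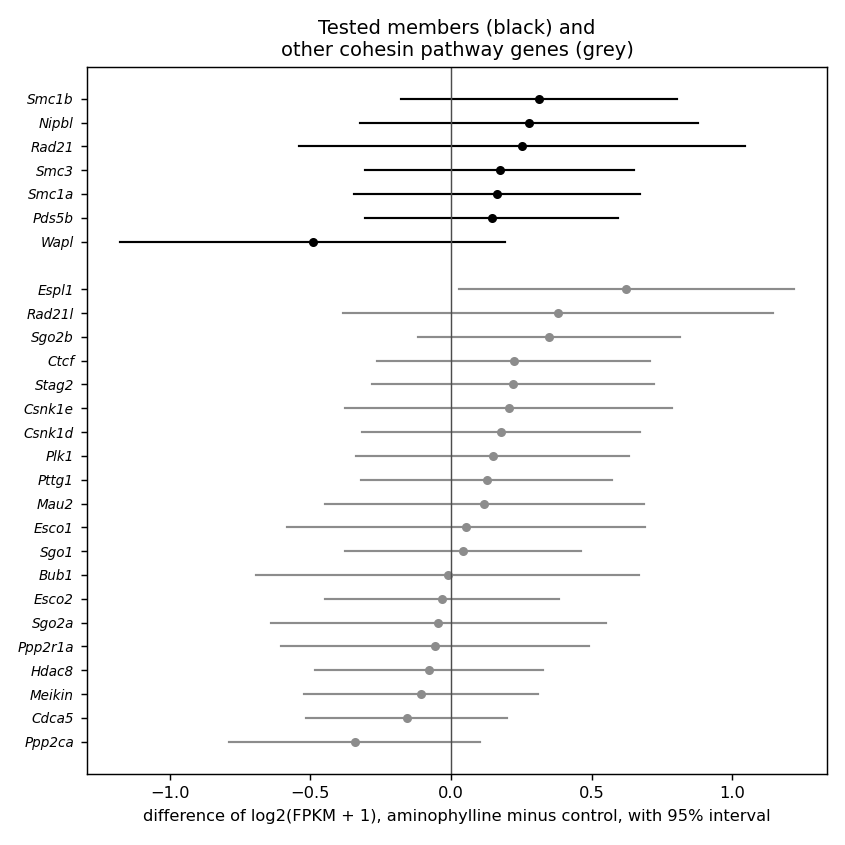
Difference of log2(FPKM + 1), aminophylline minus control, with its 95% interval from limma, for the 7 tested cohesin genes (black) and 20 other tested genes of the pathway (grey). All black intervals contain 0, and of the grey ones only that of *Espl1* (0.027 to 1.22) does not, without adjustment for the number of genes tested.

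Other SMC complexes and the chromosome axis were set beside cohesin. Of 15 genes of condensin and the SMC5/6 complex, 14 were tested, 0 had an adjusted or an unadjusted p under 0.05 (limma), and 12 had a positive and 2 a negative difference, with a median of 0.18. Of 10 genes of the chromosome axis and synaptonemal complex, which assemble on meiotic cohesin, 7 were tested, 0 had an adjusted or an unadjusted p under 0.05 (limma), and 5 were positive and 2 negative, with a median of 0.071. The median of 0.17 of the 7 cohesin genes lay between these, and all 3 medians stand beside 0.10 for all tested genes.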

How the data were processed

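The authors deposited 1 table of FPKM values per gene for all 6 oocyte libraries (VAHTS kit on total RNA per the labels, aligner and counter not given in the sources used here), with GRCm38 (mm10) named in the submitters' processing notes. For the 22583 genes above 0 in more than 1 library, each FPKM value was a whole number of reads divided by a transcript length and the library total. Genes above 0 in only 1 library, *Rec8* among them, were not part of that check. Reads and lengths were recovered as the smallest whole solution, and the length may be a union of isoforms. The reads of a gene could be a multiple of those given, and levels between genes depend on that length.

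Values were transformed as log2(FPKM + 1), which understates changes of low genes. Genes with at least 1 FPKM in at least 3 of the 6 libraries (10340 of 25631) were compared with limma 3.58.1 (R 4.3.3; trend, moderated), with Benjamini-Hochberg adjustment over all of them and a threshold of 0.05. The main fit had no block. Same-numbered libraries, numbered 1 to 3 in the labels, correlated in their deviations from the group means (r = 0.14, 0.14, and 0.55), so the numbers were taken as pairs, although nothing states that they share mice, and aminophylline 1 correlated more with control 2 (0.42). Ratios of FPKM were compared by a two-sided exact permutation test on the log2 scale. Of 5 ratios planned, 4 could be computed, since *Rec8* was at 0 in 5 libraries. Named were all 10 genes and every tested gene of the pathway list. The 10 genes, the lists, and the tests were chosen with earlier results of these data known. The fit was run on simulated reads with known changes larger than any difference of the cohesin genes and without shifts linked to transcript length. That run does not show how the fit performs for differences as small as those given here. Gene positions are from GENCODE M21 (GRCm38), and promoters from RefSeq (GRCm38.p6). Alternatives were other pseudocounts, filters, scalings, tools, and leaving out each library. The table also held annotation columns, of which only the KEGG and gene identifiers were read.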

Additional observations from a re-analysis of the deposited data

How the results depend on the processing

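All adjusted calls among the 7 tested cohesin genes and the 20 other pathway genes stayed at 0 under the 18 alternatives, and 449 of 475 gene fits kept their direction. At an unadjusted p under 0.05, 1 of the 7 (*Wapl*) was counted with the length correction, with library weights, with the replicate block, and with the block plus the length correction, and 0 to 1 when a library was left out (1 without control 2). Over all 10340 tested genes, 592 were lower at that level with the length correction, 613 with library weights, and 445 with the replicate block. The number lower was 846 with the block plus the length correction and 752 without control 2, against 294 in the main fit. Over the alternatives the *Wapl* difference ran from −0.89 to −0.25 and its adjusted p from 0.105 to 0.999 (limma). Its unadjusted p ran from 0.00191 to 0.476 (limma) and was under 0.05 in 5 of the 18. It was 0.323 without moderation, 0.224 without a filter, and 0.159 after rescaling to the same sum (limma). Of the pathway genes 1 was counted, against 3 with library weights (*Rad21l*, *Ppp2ca*, *Espl1*), 2 with the block plus the length correction (*Ppp2ca*, *Espl1*), 0 without a filter, after rescaling, or without moderation, and 0 to 2 when a library was left out (0 without control 1, aminophylline 2, or aminophylline 3, 2 without control 2, *Ppp2ca* and *Pttg1*, and 2 without control 3, *Rad21l* and *Espl1*). Apart from the calls named for *Wapl* and these genes, the replicate block changed no call in the lists. Over all genes it raised the number under an unadjusted p of 0.05 from 750 to 1467 and the adjusted calls from 0 to 47, none of them in the lists. The number under an unadjusted p of 0.05 was 980 with the length correction, 2011 with library weights, and 1530 with the block plus the length correction. Without a filter it was 1404 of 25631. It was 1617 without control 2, 1474 without control 3, 369 without control 1, 329 without aminophylline 2, and 428 without aminophylline 3.

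Small differences turned in sign with the scaling. *Esco1* was −0.033 with the length correction, −0.028 with median centring, and −0.033 with the block plus the length correction. *Sgo1* was −0.025 with the length correction, −0.039 with median centring, −0.0035 with quantile normalization, and −0.025 with the block plus the length correction. With library weights *Sgo2a* was 0.028 and *Ppp2r1a* 0.063. When a library was left out, the difference ran from −0.094 to 0.59 for *Rad21*, from −0.0063 to 0.36 for *Mau2*, from −0.24 to 0.28 for *Esco1*, from −0.23 to 0.074 for *Esco2*, from −0.091 to 0.13 for *Sgo1*, from −0.22 to 0.21 for *Sgo2a*, from −0.32 to 0.34 for *Bub1*, from −0.30 to 0.22 for *Ppp2r1a*, from −0.024 to 0.35 for *Pttg1*, and from −0.060 to 0.37 for *Plk1*. The log2 difference of the ratio of *Stag3* to *Stag1* and *Stag2* ran from −0.53 to 0.045 (positive without control 2), and that of *Pds5b* to *Pds5a* from −0.75 to 0.17 (positive without control 1, aminophylline 2, or aminophylline 3). The median of the 20 pathway genes, 0.086, ran from −0.024 without control 2 to 0.28 without control 3. The cause of these changes was not tested. *Rec8* (0 or 1 reads a library), *Stag3* (36 to 95), and *Pds5a* (23 to 146) did not reach 1 FPKM in 3 libraries and were not tested in the main fit. Without a filter all 10 genes were fitted, and 0 had an adjusted or an unadjusted p under 0.05 (limma). With 3 libraries a group, the intervals of the 7 tested genes rested on the spread between libraries, moderated by that of all tested genes.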
